A study of Homo sapiens with 6 samples.

Results

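The long non-coding RNAs (lncRNAs) MALAT1, NEAT1 and NORAD were followed in the RNA that co-precipitated with CELF1 (also named CUGBP1) from melanoma cells. They are 3 of 17677 genes, and of 2534 lncRNA genes, with exonic sequence in the bins that the authors' peak caller had retained. The 3 RNAs were chosen by their read counts in these same lists, so that their levels and their ratios of immunoprecipitated (IP) RNA to input are given as a description, without a test. The members of each RNA are the 20-base bins whose centre lies in an annotated exon on the transcript strand. Values of the samples are given throughout in a fixed order, with SK-Mel-103 first, then replicate 1 and last replicate 3 of UACC-62. MALAT1 had 315, 315 and 300 such bins, NEAT1 had 256, 852 and 606, and NORAD had 240, 253 and 254, out of 816781, 780750 and 862731 bins in the whole lists.

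SK-Mel-103 and UACC-62 are established human melanoma cell lines, grown without any treatment or genetic change named in the labels. Cells were fixed with formaldehyde and lysed, complexes were pulled down with an antibody against CELF1, and the RNA of the pulldown was sequenced beside the input. The series lists 6 samples, namely an IP and an input from SK-Mel-103 (replicate 1) and from each UACC-62 replicate (1 and 3), and each input is analysed here as the covariate of its IP list. SK-Mel-103 had no replicate, and the design text calls the UACC-62 samples biological duplicates.

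CELF1 is an RNA-binding protein with a preference for GU-rich and UGU-containing sequence, and is known to act on splicing in the nucleus and on mRNA decay and translation in the cytoplasm. MALAT1 is an abundant RNA of nuclear speckles. NEAT1 is the scaffold of paraspeckles, another class of nuclear body, and is made as short polyadenylated isoforms and as a long isoform that shares their start. NORAD is a cytoplasmic lncRNA that is induced by DNA damage and known for its role in genome stability.

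In GRCh37 with GENCODE version 44, MALAT1 (ENSG00000251562) lies at chr11:65265111-65275544 on the plus strand, with 10434 exonic bases. NEAT1 (ENSG00000245532) lies at chr11:65190245-65213011 on the same strand, with 22767 exonic bases. Of its 9 annotated transcripts, 8 end by base 3740, and the remaining transcript spans nearly the whole gene. NORAD (ENSG00000260032) lies at chr20:34633540-34638940 on the minus strand, as 1 transcript of 5401 bases. All bins described are exonic. Positions along an RNA are counted from 1 at its annotated start.

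The bins below carry the highest IP over input of MALAT1 and NORAD and the most IP reads of NEAT1, and are printed on the transcript strand, from the reference genome, with TGT in capitals. Lysates were sonicated before the pulldown, and the RNA was fragmented again after it. A read of 40 nt from such RNA need not start at the site of contact, so that a bin's letters mark where reads fell and not where CELF1 sat.
MALAT1 bin at chr11:65273501-65273520: ttttcttttcctgagaaaac
NEAT1 bin at chr11:65193921-65193940: cTGTtacgtcaTGTacataa
NEAT1 bin at chr11:65199241-65199260: cgtTGTTGTtgactTGTagg
NORAD bin at chr20:34633661-34633680: acacaggatctagaagaata
NORAD bin at chr20:34633641-34633660: TGTcaaactataaactgctt
NORAD bin at chr20:34633621-34633640: gtgatTGTgaatgacttTGT

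Elements of the nuclear RNAs are shown next, since exact ones are found in NEAT1 alone. The first is a GU-rich element (GRE) of NEAT1 within a long GU repeat, and the second the best GRE match of MALAT1 in its listed part. Capitals mark the element.
NEAT1 GU repeat at chr11:65196978-65196988: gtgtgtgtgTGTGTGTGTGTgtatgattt
MALAT1 GRE with 1 mismatch at chr11:65271140-65271150: ataaaatagTGTTTGTCTGTagttcagtg

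IP reads in the lists amounted to 10958459, 11333805 and 14436573. The input reads were 8453517, 10161917 and 8900292. IP over input was taken as the log2 ratio of the summed reads of an RNA, each divided by the total of its own list, with 1 read added to both. Only bins that passed the caller are listed, so that the input elsewhere is unknown and each ratio holds for passing bins only. The median log2 IP over input of all genes listed was 0.14, -0.16 and 0.25. Of 8 melanocyte lineage markers, 3 were listed in SK-Mel-103 and 6 in both UACC-62 samples, with 900, 15728 and 11980 input reads in sum. PMEL and TYRP1 were listed in none, and TYR, DCT and S100B were not listed in SK-Mel-103.

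The UACC-62 replicates differed in the level of MALAT1 and NEAT1, in IP and input alike. Over the bins listed in both, MALAT1 input was 4509 RPM (reads per 1e6 listed reads) in replicate 1 and 1398 RPM in replicate 3, a ratio of 3.22, and its IP was 2347 and 915, a ratio of 2.57. NEAT1 input was 247 and 108 RPM, a ratio of 2.29, and its IP had a ratio of 2.33. NORAD was nearly level, with an input ratio of 1.05 and an IP ratio of 0.93.

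The median input ratio of the 4360 genes with 20 or more bins in both replicates was 1.06, and 0.711% of these genes reached a ratio of 2 or more. MALAT1 stood above 99.9% and NEAT1 above 99.6% of them, and NORAD above 48.0%. Of the other nuclear lncRNAs, 3 had 5 or more bins listed in both replicates, and PVT1 had an input ratio of 2.61, LINC-PINT of 2.08 and FTX of 1.91. The nuclear shift was not uniform. FIRRE and CHASERR had fewer shared bins, and over all their listed bins the input was lower in replicate 1, with 9.05 against 12.4 RPM for FIRRE and 12.0 against 14.9 RPM for CHASERR. The 10 other cytoplasmic lncRNAs had input ratios from 0.78 to 1.48, with a median of 0.99. In such bulk samples, fewer cells with an RNA and less of it per cell cannot be told apart. Because the shift was in both libraries of a replicate, levels of MALAT1 and NEAT1 are given below for each replicate, and IP over input is set within the replicate.

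**Figure D1:**
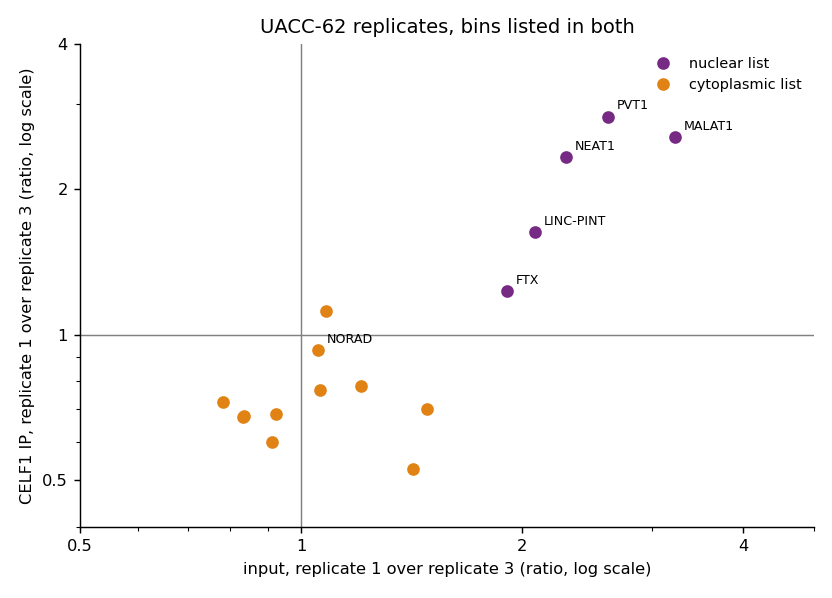
Ratio of UACC-62 replicate 1 to replicate 3 in RPM, for the input (x axis, log scale) and the CELF1 IP (y axis, log scale), over bins listed in both replicates. Each point is a lncRNA of the nuclear or cytoplasmic list, and grey lines mark a ratio of 1. The 5 nuclear RNAs with 5 or more shared bins lie at input ratios of 1.91 to 3.22, and NORAD lies at 1.05.

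MALAT1 was among the most abundant RNAs of the input and lower in the IP in all 3 samples. It held 36713, 46337 and 12495 input reads and 27352, 26782 and 13300 IP reads. By summed reads it ranked 2, 4 and 46 among all listed genes in the input, and 12, 24 and 138 in the IP. Every listed MALAT1 bin held input reads.

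On the log2 scale MALAT1 stood at -0.80 in the IP over the input of SK-Mel-103, with a Wilson 95% interval for counting error alone of -0.82 to -0.78. It was -0.95 and -0.61 in UACC-62 replicates 1 and 3, a mean of -0.78 ± 0.24 (SD, n = 2), so that both cell lines lay within the spread of the UACC-62 replicates. These values correspond to 0.575, 0.518 and 0.656 times the input level. Without division by the list totals, replicate 3 stood at 0.090. With it, MALAT1 lay below 0 in all 3 samples, as did 52.9% of the 4864 genes with 20 or more bins in each sample and 31.3% of the 83 lncRNA genes among them.

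NORAD was higher in the IP than in the input in all 3 samples. It held 4694, 8455 and 7026 input reads and 11893, 22618 and 30973 IP reads. The log2 IP over input of NORAD was 0.97 in SK-Mel-103, with an interval of 0.92 to 1.02 from counting error, and 1.26 and 1.44 in UACC-62, a mean of 1.35 ± 0.13 (SD, n = 2). These are 1.95, 2.40 and 2.72 times the input level. SK-Mel-103 lay 0.39 below the UACC-62 mean, beyond the spread of the 2 replicates, but without a replicate of its own. A log2 ratio above 0 in all 3 samples was found for 30.7% of the 4864 genes and for 54.2% of the 83 lncRNAs.

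NEAT1 was the most uneven between the cell lines. It held 1045, 3336 and 967 input reads and 2082, 15327 and 6887 IP reads. Summed over its listed bins, NEAT1 input was 124 and 109 RPM in SK-Mel-103 and UACC-62 replicate 3, and its IP was 190 and 477 RPM. These sums cover 256 and 606 bins, so that the levels are not directly comparable. Over the 204 bins listed in all 3 samples, input was 892 and 512 reads in the same samples, and IP was 1705 and 3086 reads. These are counts not divided by the list totals, which were 10958459 and 14436573 for the IP. NEAT1 ranked 1018, 67 and 344 among all genes by IP reads.

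For NEAT1 the log2 ratio was 0.62 in SK-Mel-103, with an interval of 0.51 to 0.73, and 2.04 and 2.13 in UACC-62, a mean of 2.09 ± 0.06 (SD, n = 2). The UACC-62 mean was higher by 1.47, a gap well beyond the spread of the replicates. In NEAT1, 25, 136 and 221 of the listed bins had no input read, or 9.77%, 16.0% and 36.5%, against at most 5 bins of NORAD in any sample. The 204 bins of NEAT1 listed in all 3 samples gave 0.56, 1.88 and 1.89, and kept the order of the cell lines.

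Levels between the RNAs are compared per kilobase of the whole exonic length, although only listed bins add reads, so that an RNA with few listed bins is understated. In the input, MALAT1 stood at 416, 437 and 135 RPKM (RPM per kilobase), NORAD at 102.8, 154 and 146, and NEAT1 at 5.43, 14.4 and 4.77. In the IP, MALAT1 stood at 239, 226 and 88.3, NORAD at 201, 369 and 397, and NEAT1 at 8.34, 59.4 and 21.0. MALAT1 was the highest of the 3 in the IP of SK-Mel-103 and NORAD in both UACC-62 samples. NEAT1 was the lowest in every library.

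**Figure D2:**
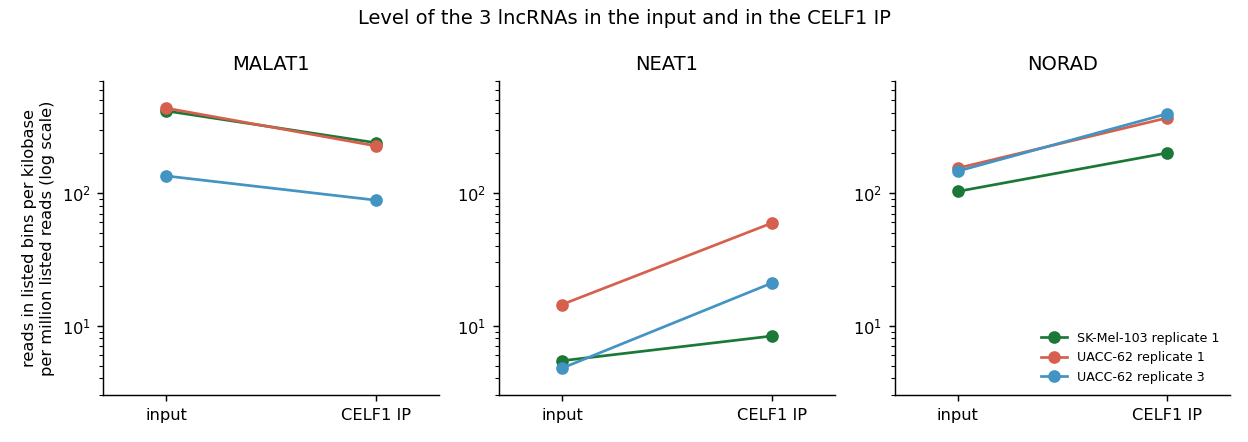
RPKM in listed bins (y axis, log scale) in the input and in the CELF1 IP, with a line for each sample. The lines of MALAT1 fall and those of NEAT1 and NORAD rise from input to IP in all 3 samples. The MALAT1 line of UACC-62 replicate 3 starts at 135 and that of replicate 1 at 437.

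NORAD exceeded MALAT1 in log2 IP over input by 1.77 in SK-Mel-103 and by 2.21 and 2.05 in UACC-62, a mean difference of 2.13 ± 0.11 (SD, n = 2). NORAD minus NEAT1 was 0.35 in SK-Mel-103, but -0.78 and -0.69 in UACC-62, a mean of -0.74 ± 0.06 (SD, n = 2). The order of NORAD and NEAT1 thus turned between the cell lines, and the turn was not tested. The NORAD and MALAT1 values share the list totals of a sample, which cancel in the difference. NORAD was thus above MALAT1 in all 3 samples, and above NEAT1 in SK-Mel-103 only.

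Bins with more than 30 IP reads, the minimum used in the study, numbered 205, 198 and 138 in MALAT1, 137, 194 and 211 in NORAD, and 1, 125 and 22 in NEAT1. Bins above that minimum in all 3 samples numbered 134 in MALAT1, 137 in NORAD and 1 in NEAT1. Of 11602 genes listed in all 3 samples, 16.4% had such a common bin, and of 756 lncRNA genes 8.73%. All 3 RNAs were chosen for their reads in these lists, so nothing is read from their being among them.

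The sharing of bins differed among the RNAs. Of 256 NORAD bins listed in any sample, 239 (93.4%) were listed in all 3, and of 331 MALAT1 bins 285 (86.1%). Of 887 NEAT1 bins, 204 (23.0%) were in all 3, while 373 were in both UACC-62 samples but not in SK-Mel-103 and 6 in SK-Mel-103 alone. Most of the NEAT1 bins were thus listed in UACC-62 without SK-Mel-103, where the NEAT1 IP level was lower.

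Along MALAT1, IP over input, with reads divided by the list totals, was below 0 on the log2 scale in nearly every stretch. In 500-base windows with 5 or more listed bins, 13, 14 and 13 of 14 windows were below 0. The highest window was the same in the 3 samples, at bases 6501 to 7000, with 0.23, -0.02 and 0.16. The lowest was also shared, at bases 2001 to 2500, with -1.69, -1.59 and -1.44. The profile of log2 IP over input had Spearman's rho of 0.71 to 0.74 between pairs of samples over 14 windows, which is a description across windows of the same RNA.

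No MALAT1 bin before base 1561 was listed in any sample, and none between bases 8501 and 9500. A bin at base 9501 was listed in SK-Mel-103 alone, with 4 IP reads. The bin printed above at chr11:65273501-65273520, centred on base 8401, went against the rest of the RNA. It held 129, 137 and 91 IP reads and 6, 25 and 5 input reads, or 3.84, 2.25 and 3.24 on the log2 scale, within a window that stood at -1.09, -1.43 and -0.80 as a whole. Of the 285 bins listed in all 3 samples, 26.7%, 16.8% and 23.9% had a log2 ratio above 0.

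Along NEAT1, the part held by the short isoforms had a lower IP over input than the part of the long isoform alone. The first 3700 bases held 759, 1925 and 798 IP reads and 571, 965 and 285 input reads, and stood at 0.04 in SK-Mel-103 and at 0.84 and 0.78 in UACC-62. The rest of the RNA held 1323, 13402 and 6089 IP reads and 474, 2371 and 682 input reads, and stood at 1.10, 2.34 and 2.46. The difference of the first 3700 bases from the rest was -1.07 in SK-Mel-103 and -1.50 and -1.67 in UACC-62, a mean of -1.59 ± 0.12 (SD, n = 2).

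Reads of the first 3700 bases can come from either kind of isoform. The labels call the pulldown RNA poly A+, whereas the protocol describes removal of ribosomal RNA. The short isoforms are polyadenylated, and a bearing of the RNA selection on the parts was not tested. Per kilobase, input over the first 3700 bases exceeded that over the rest in every sample, with 18.3 against 2.94, 25.7 against 12.2 and 8.65 against 4.02 RPKM. In the IP, it exceeded the rest in SK-Mel-103, with 18.7 against 6.33, and lay below it in both UACC-62 samples, with 45.9 against 62.02 and 14.9 against 22.1. Only listed bins add reads to these values. Listed were 40%, 62.7% and 38.9% of the first 3700 bases, and 19.1%, 77.2% and 56.0% of the rest. The order of the parts per kilobase therefore also depends on the share listed.

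The long part was not uniform. Bases 4001 to 17000, delimited after the profile had been seen, stood at 1.34, 2.87 and 2.73, and bases 17501 to 20000 at -0.34, 0.22 and 0.69. Beyond them, bases 20001 to 22000 returned to 1.28, 2.30 and 1.46. The dip was present in all 3 samples, but SK-Mel-103 had only 12 listed bins in it, with 85 IP and 83 input reads. The windows of the UACC-62 replicates had a rho of 0.85 over 41 windows, and those of SK-Mel-103 against them had 0.55 and 0.64 over 24 and 23 windows.

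Along NORAD, IP exceeded input in all 11 windows of each sample. The first 5000 bases stood at 0.81 in SK-Mel-103 and at 1.18 and 1.40 in UACC-62, and the last 401 bases at 2.10, 1.87 and 1.71. The excess of the end over the first 5000 bases was therefore largest in SK-Mel-103. In UACC-62 replicate 3 the highest window was bases 4501 to 5000, at 1.85, and in the other samples it was the end. The 3 neighbouring bins of NORAD printed above lie in this end. The first of them, at chr20:34633661-34633680, held 161, 221 and 293 IP reads and 8, 32 and 26 input reads, or 3.80, 2.59 and 2.75 on the log2 scale. Neighbouring bins share fragments and are not independent.

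The bin with the most NORAD IP reads, centred on base 5350, was the same in the 3 samples, with 407, 758 and 997 IP reads. It was also high in the input, with 110, 197 and 209 reads, and its log2 ratio was 1.50, 1.78 and 1.55, above that of the RNA as a whole in each sample and below that of the bins printed above. Profiles of NORAD had a rho of 0.79 to 0.89 in log2 IP over input between pairs of samples, over 11 windows.

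**Figure D3:**
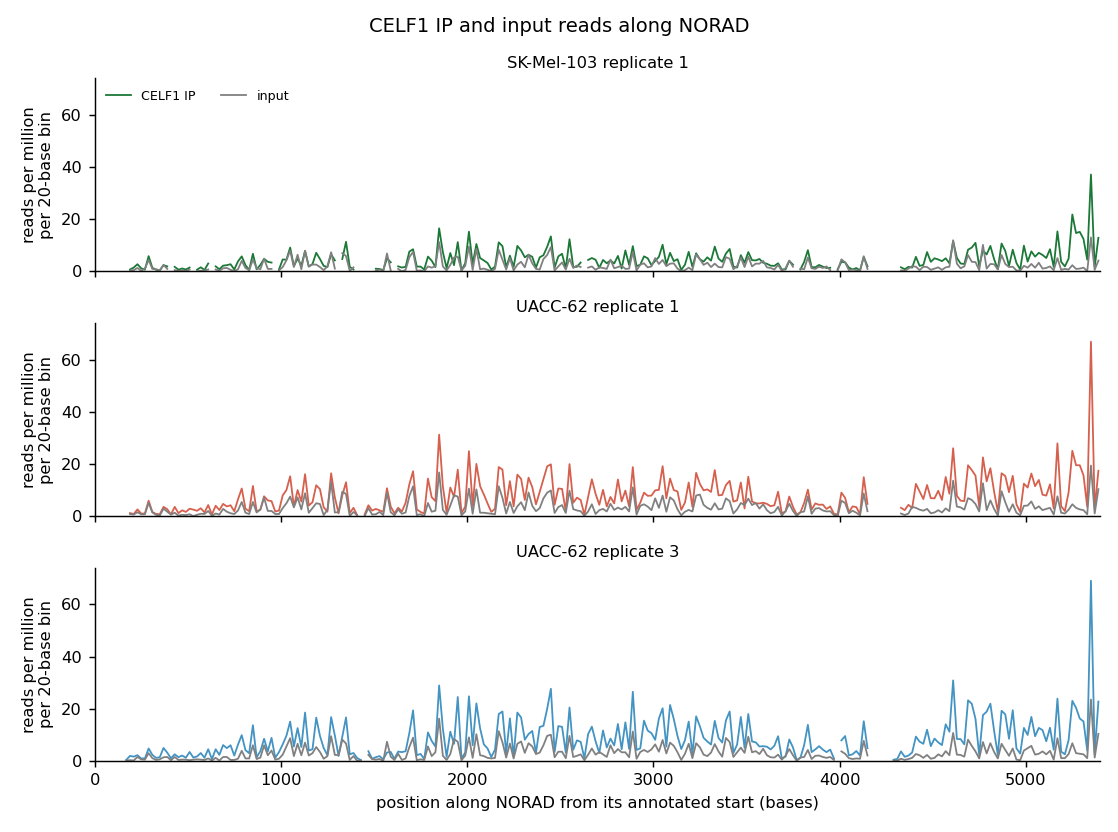
IP reads (coloured) and input reads (grey) in RPM in each 20-base bin (y axis) along NORAD (x axis, bases from the annotated start), with a panel for each sample. Gaps are bins not listed, and the highest IP bin is centred on base 5350 in all 3 samples, with 407, 758 and 997 IP reads.

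**Figure D4:**
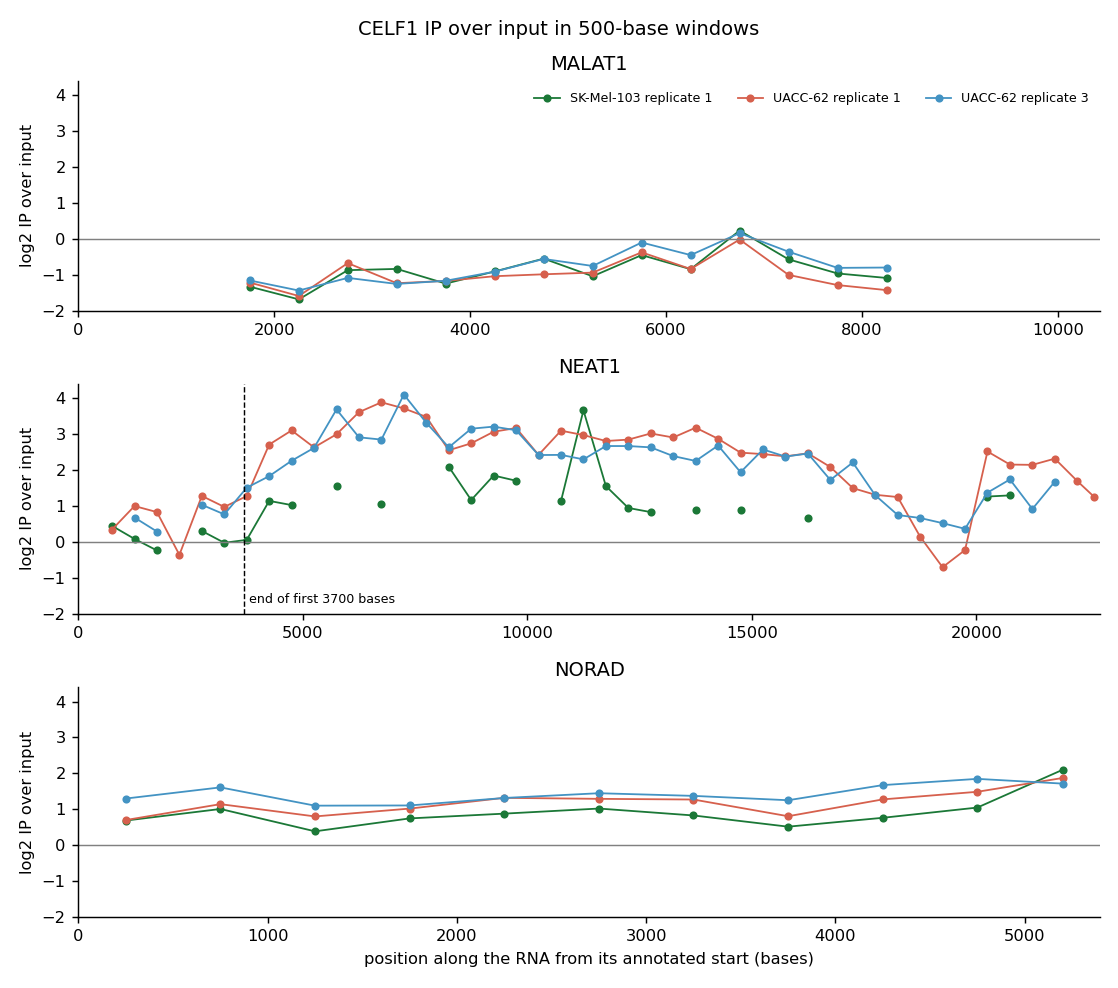
Log2 IP over input (y axis) in 500-base windows along each RNA (x axis, bases from the annotated start), with a line for each sample and gaps where a window had fewer than 5 listed bins. MALAT1 stays mostly below 0 with its top at bases 6501 to 7000, NEAT1 rises past the dashed line at base 3700 and dips between bases 17501 and 20000, and NORAD stays above 0 and ends at 2.10, 1.87 and 1.71.

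The RNAs differ in the elements that CELF1 is known for. TGT, counted on the transcript strand, occurred 206 times in MALAT1, 698 times in NEAT1 and 184 times in NORAD, or 19.7, 30.7 and 34.1 times per kilobase. GREs were taken as 11 bases of a GU repeat or of a UGUU repeat within 2 mismatches. There were 14 in MALAT1, 94 in NEAT1 and 6 in NORAD, counted with overlaps, or 1.34, 4.13 and 1.11 per kilobase. The exact ones numbered 43, all in NEAT1, and 25 of them overlap within 1 repeat at bases 21491 to 21549. The counts overlap, as a GRE can hold several TGT.

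Over the bins listed in all 3 samples, TGT was in 27.7% of the bins of MALAT1, 44.1% of those of NEAT1 and 47.3% of those of NORAD, against 33.3% of 262109 exonic bins of all genes listed in all 3 samples. A match is a count of letters and not a site of binding.

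Bins with and without TGT were set side by side within each RNA. In MALAT1 the median log2 IP over input was -0.55, -0.79 and -0.41 in the 79 bins with TGT and -0.79, -0.96 and -0.70 in the 206 without. In NORAD it was 1.21, 1.34 and 1.50 with TGT and 0.93, 1.27 and 1.47 without. In NEAT1 it was 0.95, 2.08 and 1.62 with TGT and 0.66, 2.02 and 1.62 without. Bins with TGT were thus higher in all 3 samples of MALAT1 and NORAD, by the least in UACC-62 replicate 3 of NORAD, and level in UACC-62 replicate 3 of NEAT1. Bins with a GRE were few, and went the other way in NORAD, where 3 bins with a GRE stood at 0.57, 1.08 and 1.15 and the 236 others at 1.04, 1.33 and 1.47. In NEAT1 the 5 bins with a GRE stood at 0.85, 2.52 and 0.76 and the 199 others at 0.85, 2.06 and 1.62, so that their order differed among the samples.

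In NEAT1, GREs with at most 1 mismatch formed 7 separate stretches, 5 of them between bases 4001 and 17000. The longest within that part covers bases 6708 to 6748 and holds the GU repeat printed above. Bins within 200 bases of a stretch in that part stood at 0.88 in SK-Mel-103 and 3.25 and 2.94 in UACC-62, and the other bins of that part at 1.41, 2.83 and 2.70. Pooled over the 5 stretches, the bins near a stretch were thus lower in SK-Mel-103 and higher in UACC-62. SK-Mel-103 had 19 bins with 128 IP reads near a stretch, and up to 20 alignments were allowed per read, which bears on repeats. From the first to the last, the 5 stretches stood at 3.89, 3.86, 2.64, 3.26 and 2.96 in UACC-62 replicate 1. In replicate 3 they stood at 2.79, 3.83, 3.47, 1.94 and 2.40. In both replicates single stretches thus lay on either side of the other bins. The longest stretch of the RNA, bases 21491 to 21549, lies outside that part. With 1, 10 and 3 bins within 200 bases, it stood at 3.09, 2.54 and 0.80.

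The 3 RNAs were set beside other lncRNAs of known location, in a nuclear and a cytoplasmic list of 13 genes each that include them. Among nuclear lncRNAs other than MALAT1 and NEAT1 with 5 or more bins, 2 of 5, 3 of 5 and 4 of 6 were above 0, with medians of -0.03, 0.67 and 1.76. The values of UACC-62 replicate 3 rest in part on little input. KCNQ1OT1 was counted in that replicate only, at 3.76 from 43 IP reads and 1 input read. LINC-PINT stood at 1.76 there, from 142 IP reads and 25 input reads. PVT1, a lncRNA beside MYC, was the nearest to NEAT1 in UACC-62, with 1.52, 2.18 and 2.20. CHASERR, a regulator of its neighbour CHD2, was near MALAT1 or lower, with -0.95, -1.40 and -1.30. MEG3, MIAT, HOTAIR and HOTTIP had no listed bin.

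Among cytoplasmic lncRNAs other than NORAD, 0 of 10, 2 of 11 and 3 of 10 were above 0, with medians of -0.49, -1.14 and -1.14. NORAD was above every one of them in each sample, the highest of the others being -0.10, 0.26 and 0.70. Many of these RNAs are hosts of small nucleolar RNAs. Some bins of this list also lay in exons of another gene on the same strand. They made up 15.9%, 30% and 27.3% of the SNHG5 bins, and SNHG1, SNHG6 and SNHG8 had none. SNHG6 stood at -1.35, -2.57 and -2.18, and GAS5 at -0.56, -1.14 and -1.11. With the 3 RNAs included, the cytoplasmic median minus the nuclear median was -0.39 in SK-Mel-103 and -1.75 and -2.87 in UACC-62, a mean of -2.31 ± 0.79 (SD, n = 2). NORAD and MALAT1 therefore differed in the opposite direction to their lists. The lists rest on few genes, and the UACC-62 mean changed sign with only bins of more than 100 IP reads, where MALAT1 alone was left of the nuclear list. The difference in SK-Mel-103 turned to 2.01 there, and also to 0.25 with bins over 30 IP reads and to 0.041 with the longest transcript only.

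**Figure D5:**
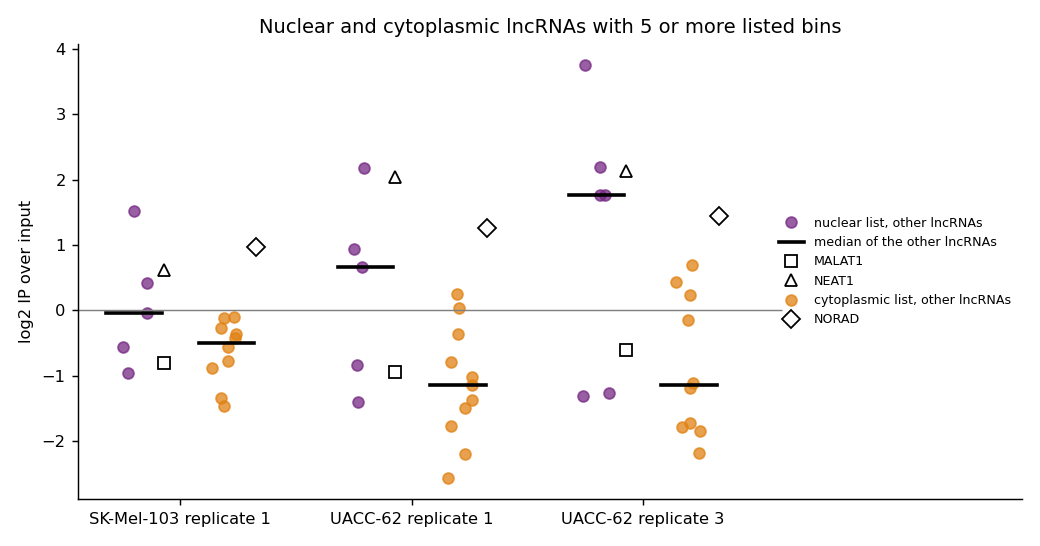
Log2 IP over input (y axis) of lncRNAs with 5 or more listed bins, by list and sample (x axis). Filled points are the other lncRNAs, black bars their medians, and open symbols MALAT1, NEAT1 and NORAD. NORAD lies above every other cytoplasmic lncRNA in each sample, and MALAT1 lies below the median of the other nuclear ones.

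Of the 83 lncRNAs with 20 or more bins in each sample, those closest to each RNA in the 3 values of log2 IP over input were taken by Euclidean distance. HCG11 was the closest to NORAD, at a distance of 0.30, with 0.95, 0.98 and 1.35. CCDC144BP was the closest to NEAT1, at 0.46, with 0.68, 1.59 and 2.12, followed by SNHG16 at 0.68 and TMEM161B-DT at 0.70. The closest to MALAT1 was ENSG00000257379, at 0.24, with -0.96, -1.10 and -0.51. The distance to NEAT1 was larger than that of the other RNAs to their nearest lncRNA.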

How the data were processed

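CELF1 RIP-Seq data of SK-Mel-103 (1 sample) and UACC-62 (2 replicates) were analysed from the authors' peak lists. The methods name 40-nt single-end reads, formaldehyde fixation and sonication, alignment to GRCh37/hg19 with TopHat as a first-strand library with up to 20 alignments per read, and Piranha in bins of 20 bases with the input as covariate. The submitters' processing notes name FastQC, TopHat2 2.0.4, Bowtie 0.12.7 and SAMtools 0.1.16. The labels call the pulldown RNA poly A+, whereas the protocol describes removal of ribosomal RNA. The IP read counts were deposited by the authors per bin without normalization. Their deposited p-value is that of the peak caller, with an FDR of 0.05 named in the methods, while the lists carry no header that tells if the printed value is the corrected one. A further deposited ratio gives the input reads relative to a fixed number, with 0.01 for none, and replicates were not pooled. The methods also name a mouse IgG pulldown, but the 6 samples of the series are CELF1 IPs and inputs only. IP over input could therefore not be set against non-specific pulldown here.

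The ratio was divided by its smallest step to obtain input reads, which all came out whole within 0.1 read. The lowest IP count in a listed bin was 4. Bins were placed by their centre in exons of GENCODE version 44 mapped to GRCh37, on the reverse of the listed strand. The chromosome names and the build of the annotation are those of the lists. Reads were summed per RNA, per 500-base window and per part, divided by list totals and compared on the log2 scale with a pseudocount of 1 read. Intervals are Wilson 95% and cover counting error only, since PCR reads are not independent molecules.

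The members, lists and regions were chosen with earlier results of these data known. No test was made, because the members were chosen on the same values and SK-Mel-103 had 1 sample. Named bins were the 5 with the highest lowest-of-3 log2 ratio among bins with more than 30 IP reads in all 3 samples, and the bins with the most IP reads, of which those the text turns on are printed. Alternatives covered the read filter, the p-value, bins without input, the pseudocount, the scaling, the exon model, the strand and each UACC-62 replicate. An item withheld from this text is not reported here. Scripts were tested on simulated data, where the input reads of all 50000 bins and all 400 planted elements were recovered. The software was bedtools 2.31.1, samtools 1.23.1 and Python 3.11.15 with pysam 0.24.0, pandas 2.3.3, numpy 2.4.6, matplotlib 3.10.9 and scipy 1.17.1.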

Additional observations from a re-analysis of the deposited data

Results flagged for a closer look

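In 3 cases a log2 ratio, or a difference of log2 ratios, of SK-Mel-103 lay on the other side of 0 from both UACC-62 replicates. These differences between the cell lines were not tested. NORAD minus NEAT1, a difference of log2 ratios, was 0.35 in SK-Mel-103 and -0.78 and -0.69 in UACC-62 replicates 1 and 3. NORAD and NEAT1 were each above 0 in all 3 samples. The nuclear lncRNA LINC-PINT was at -0.55 in SK-Mel-103 and at 0.67 and 1.76 in UACC-62. Its input was 1266 reads in SK-Mel-103 and 188 and 25 reads in UACC-62. SNHG1, a small nucleolar RNA host, was at -0.10 in SK-Mel-103 and at 0.034 and 0.70 in UACC-62.

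Bins on the strand opposite to the RNA were not used in the comparisons above. Antisense to MALAT1, where the gene TALAM1 is annotated, they held 16 and 8 IP reads in UACC-62 replicates 1 and 3, and no bin was listed in SK-Mel-103. Antisense to NORAD they held 18 and 48 IP reads in the same samples, and again no bin was listed in SK-Mel-103. No antisense bin of NEAT1 was listed. No listed bin held fewer than 4 IP reads, so that antisense reads below this are unknown in each sample. The counts are small beside the 13300 to 30973 IP reads of the sense strand of MALAT1 and NORAD in these samples.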

How the results depend on the processing

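For NORAD minus MALAT1, the UACC-62 mean stayed within 1 SD of 2.13 under each alternative except the listed strand, where it was 1.15, and it ranged from 2.05 to 2.21 with either replicate left out. NORAD minus NEAT1 stayed below 0, at -1.17 with only bins over 30 IP reads, -0.53 with bins listed in all 3 samples and -0.41 without the bins that had no input, and at -0.78 to -0.69 with a replicate left out. The first 3700 bases of NEAT1 minus the rest was -1.76 with only bins over 30 IP reads and -1.30 without the bins that had no input, and -1.67 to -1.50 with a replicate left out. The cytoplasmic minus the nuclear median was -1.01 with only bins over 30 IP reads and -0.83 with the longest transcript only, turned to 1.91 with only bins over 100 IP reads, where MALAT1 was the lone nuclear RNA, and was -2.87 to -1.75 with a replicate left out. In SK-Mel-103, that difference of -0.39 turned to 0.25 with bins over 30 IP reads, 2.01 with bins over 100, 0.041 with the longest transcript only and 0.58 on the listed strand.

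Common bins of MALAT1, NEAT1 and NORAD numbered 285, 204 and 239 without the read filter, 33, 0 and 26 with more than 100 IP reads, and 0, 0 and 0 on the listed strand. With a UACC-62 replicate left out they were 137 to 189, 1 to 1 and 137 to 137. MALAT1 alone turned above 0 in log2 IP over input, to 0.090 in UACC-62 replicate 3 without division by totals, and to 0.47 in both UACC-62 replicates on the listed strand, from 16 and 8 IP reads. No paired test was run, because no test was made. Each IP was set against its own input in the log2 ratio, and the sample titles name no pairing between SK-Mel-103 and UACC-62. NEAT1 had no bin on the listed strand, and with bins over 100 IP reads it had a value in UACC-62 replicate 1 only, of 3.54, so that no UACC-62 mean could be given there. In low-input RNAs such as NEAT1, whole input reads limit the ratio of single bins.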
